A study of Homo sapiens with 8 samples.

Results

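The aldo-keto reductases described here were AKR1C1, AKR1C2, AKR1C3, AKR1B10, AKR1B1, AKR1A1 and AKR7A2, 7 of the 18787 genes in the deposited table. They were chosen by gene symbol, with their values in these libraries already known. In T98, the libraries with LKB1 siRNA held 0.502 and 0.49 times the AKR1B10 RNA of the control siRNA libraries on the same lanes, and 0.601 to 0.691 times the AKR1C1, AKR1C2 and AKR1C3 RNA. The same 4 genes were also lower with LKB1 siRNA on both lanes of U87. They were the members with far more RNA in T98 than in U87, whereas AKR1B1 had more in U87.

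Aldo-keto reductases are enzymes that use NADPH to turn aldehydes and ketones into alcohols. AKR1C1, AKR1C2 and AKR1C3 act on steroids and prostaglandins, AKR1B1 on glucose and AKR1B10 on retinal, and AKR1A1 and AKR7A2 clear reactive aldehydes. AKR1B10 and the AKR1C genes are known targets of NRF2, the transcription factor of the oxidative stress response, which KEAP1 marks for destruction in unstressed cells.

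T98 and U87 are established human glioblastoma cell lines. Cells of each line were transfected with LKB1 siRNA or control siRNA, and RNA was taken 72 h later. LKB1 is a kinase whose gene is STK11. The 4 groups were T98 with LKB1 siRNA, T98 with control siRNA, U87 with LKB1 siRNA and U87 with control siRNA, with 2 libraries each and 8 in all. All cells grew in the same serum-containing medium and received the same transfection reagent, and no untransfected cells were among the samples. The sources used here do not give the siRNA sequences or say whether duplicates were separate transfections. The p-values therefore measure only the spread between these libraries, which may be technical.

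The values are the authors' normalised read counts per transcript, adjusted to a common library size. The 8 libraries held 25234334 to 38031734 reads, and each member had at least 1052 reads in every library, so counting error was small beside the differences between lanes. Every group had a library on sequencing lane 2. The second library of a group was on lane 4 in T98 and on lane 5 in U87. Lane and duplicate therefore cannot be told apart. Within a line, the gene-by-gene difference between lanes correlated at 0.72 (T98) and 0.81 (U87) between the siRNA groups, so the LKB1 siRNA library is set beside the control siRNA library from its own line and lane as a pair. Of 13 glial and glioma markers, 7 had a value of 10 or more in every library and 4 (S100B, OLIG1, SOX2 and AQP4) were under 10 throughout. GFAP, the astrocyte filament protein, lay between 1.85 and 8.6 in T98 and between 21.6 and 50.7 in U87. The liver genes ALB, APOA1 and TTR were under 10 in every library. Of the immune markers, PTPRC, AIF1 and CD3E were under 10 in every library, while the lysosomal protein CD68 lay between 538 and 1125 in T98 and between 12020 and 22934 in U87. A value of 10 in every library was reached by 2 of 4 neuron markers (SNAP25 and GAD1) and by 1 of 3 endothelial markers (VWF). The part of other cell types in the results was not tested.

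The labels were checked with STK11 itself (hg19 chr19:1205798-1228434, plus strand). Its normalised values were 339.9 and 587.6 in T98 with LKB1 siRNA, against 1999 and 2041 in T98 with control siRNA. They were 360.7 and 384.6 in U87 with LKB1 siRNA, against 2445 and 2041 in U87 with control siRNA. STK11 was lower in each LKB1 siRNA library than in every control library. Averaged over the lines, its log2 fold change was −2.38 (SE 0.20, limma-trend, adjusted p = 0.00815). That call was lost when T98 control replicate 1 or either U87 LKB1 siRNA library was left out, with a highest adjusted p of 0.0623.

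The AKR1C genes lie side by side on chromosome 10 and are near copies, which bears on how their reads can be told apart. The first 120 coding bases of the transcripts in the table are shown from GENCODE 29 on GRCh38, chromosome 10, with capitals marking each base that differs from AKR1C1 at the same position.
AKR1C1: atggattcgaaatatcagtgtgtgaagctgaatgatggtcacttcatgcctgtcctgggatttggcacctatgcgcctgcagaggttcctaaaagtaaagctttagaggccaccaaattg
AKR1C2: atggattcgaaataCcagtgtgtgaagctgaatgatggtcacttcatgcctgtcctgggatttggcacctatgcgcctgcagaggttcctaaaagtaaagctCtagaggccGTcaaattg
AKR1C3: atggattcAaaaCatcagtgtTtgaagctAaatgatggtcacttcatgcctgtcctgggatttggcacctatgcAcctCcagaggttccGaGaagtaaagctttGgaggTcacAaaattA
AKR1C2 differed from AKR1C1 at 4 of these bases and AKR1C3 at 12. Over the 972 coding bases, AKR1C1 was 98% identical to AKR1C2 and 91.9% identical to AKR1C3. Of all stretches of 50 coding bases, 53.8% of those in AKR1C1 and 57.2% of those in AKR1C2 also occurred in another aldo-keto reductase, compared with 23% in AKR1C3. A read that lies wholly within shared bases cannot be assigned to 1 gene by its sequence. The length of 50 bases was a setting and only coding bases were compared, so these are not shares of reads. The sources used here do not say how the authors treated shared reads, so the split between AKR1C1 and AKR1C2 is uncertain. No member had values identical to those of another gene.

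On chromosome 7, AKR1B10 has a similar neighbour, AKR1B15, and a more distant one, AKR1B1. Their last 120 coding bases, again from GENCODE 29 on GRCh38, are shown with capitals for each base that differs from AKR1B10.
AKR1B10: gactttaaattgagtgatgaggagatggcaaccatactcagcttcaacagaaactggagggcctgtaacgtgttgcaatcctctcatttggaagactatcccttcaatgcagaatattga
AKR1B15: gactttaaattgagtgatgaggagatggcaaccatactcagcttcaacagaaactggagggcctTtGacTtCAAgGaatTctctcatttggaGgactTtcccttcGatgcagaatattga
AKR1B1: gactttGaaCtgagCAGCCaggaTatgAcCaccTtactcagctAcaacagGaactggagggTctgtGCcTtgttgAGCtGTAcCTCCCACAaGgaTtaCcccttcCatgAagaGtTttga
AKR1B15 differed at 11 of these bases and AKR1B1 at 38. AKR1B10 shared 19.7% of its 50-base stretches with AKR1B15 and none with AKR1B1. Reads of AKR1B1 and of AKR1A1, which shared 0% with any other member of the family compared, are therefore the easier ones to place. AKR7A2 shared 6.79% of its stretches, with AKR7A3.

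Because AKR1C1, AKR1C2 and AKR1C3 had similar profiles over the libraries, their promoters were compared in the RefSeq windows on GRCh38.p14, which run from 250 bases before to 50 after a gene's start. Windows were found for 6 of the 7 members, all but AKR1B10. The AKR1C2 window was 93.5% identical to that of AKR1C1, and the AKR1C3 window nearest the transcript in the table was 73.5% identical. The letters CCAAT, searched on both strands, occurred once in each of the 3 windows, on the reverse strand, which reads ATTGG. That match and the 12 bases on either side are shown, with the match in capitals.
AKR1C1, chr10:4963326-4963354, plus strand: ctctcacatgccATTGGttaaccagcaga
AKR1C2, chr10:5003922-5003950, minus strand: ctctcacatgccATTGGttaaccagcaga
AKR1C3, chr10:5048696-5048724, plus strand: cttttacatgctATTGGttaaccattagg
The matches lay 77, 81 and 73 bases before the RefSeq start. GENCODE transcripts with the RefSeq names in the table start 162, 166 and 31 bases away from those starts. For AKR1C1 and AKR1C2 that is upstream, given their coding starts, so the match lies downstream of that transcript start. In the table, AKR1C1 starts at hg19 chr10:5005454 and AKR1C2 at 5060225, further apart than their windows (4963165-4963464 and 5003808-5004107). The AKR1C2 start in the table thus probably lies outside its window. A window may also not hold the start used in these cells. CCAAT occurred in 34.6% of the 35116 windows in the table. It also occurred once in the AKR1B1 window, and 0 times in the window of AKR1C4, a further AKR1C gene. Whether the match bears on the RNA of any of these genes was not tested. The core of the antioxidant response element to which NRF2 binds, searched as TGACNNNGC on both strands, occurred in 13.3% of all windows. It was not among the letters of the AKR1C1, AKR1C2, AKR1C3, AKR1B1 and AKR1A1 windows, and it occurred 3 times in that of AKR7A2. Bases outside the windows were not searched, so whether these genes have the element elsewhere was not tested.

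**Figure D1:**
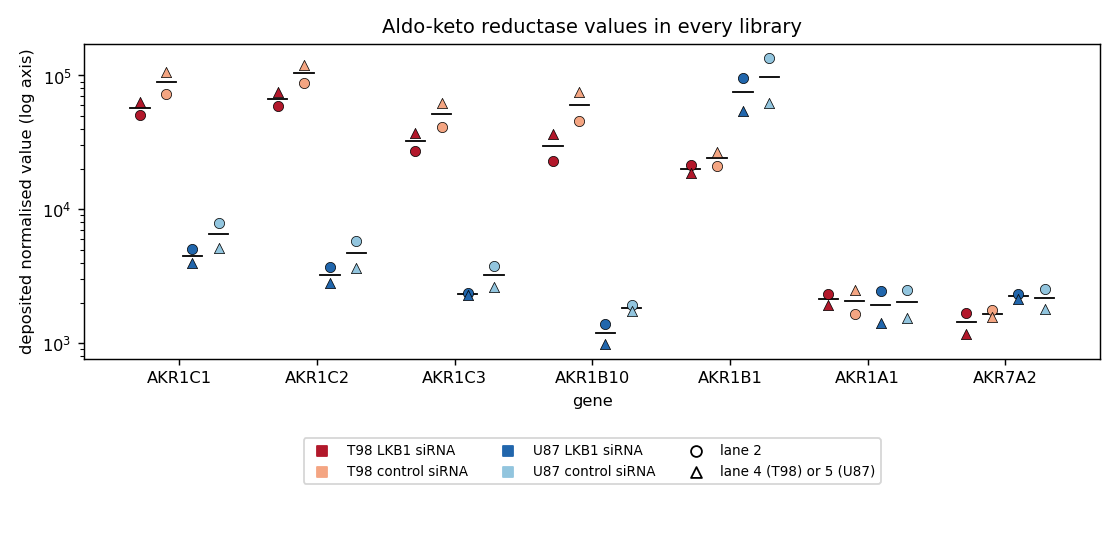
Normalised value of each aldo-keto reductase (log axis) in each of the 8 libraries, with 2 libraries per group; horizontal lines mark group means, circles lane 2, and triangles lane 4 (T98) or lane 5 (U87). AKR1C1, AKR1C2, AKR1C3 and AKR1B10 lie higher in T98 than in U87 and lower with LKB1 siRNA than with control siRNA in the same line and lane, whereas AKR1B1 lies higher in U87.

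The comparison of LKB1 siRNA with control siRNA asks which genes change when the kinase is depleted. AKR1B10 (hg19 chr7:134212344-134226166, plus strand, 1606 exonic bases) had the largest fitted log2 fold change of the 7 in both lines. This enzyme reduces retinal and lipid aldehydes, is normally made in the intestine, and is abundant in several carcinomas. AKR1B10 had normalised values of 22805 and 36825 in T98 with LKB1 siRNA on lanes 2 and 4, against 45443 and 75188 in T98 with control siRNA. The values were 1394 and 979.2 in U87 with LKB1 siRNA on lanes 2 and 5, against 1913 and 1735 in U87 with control siRNA. The groups did not overlap in either line. Within lanes, AKR1B10 in LKB1 siRNA libraries stood at 0.502 and 0.49 times the control in T98 and at 0.729 and 0.565 times the control in U87. The fitted log2 fold change was −1.01 in T98 and −0.64 in U87, each with an SE of 0.33, or 0.13 once a lane term was added. In T98 the lane 4 library was the higher of its group with either siRNA.

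The 3 AKR1C genes were lower with LKB1 siRNA in each line and lane. AKR1C1 (hg19 chr10:5005454-5020158, plus strand), which inactivates progesterone, had values of 50441 and 63861 in T98 with LKB1 siRNA, against 73003 and 106088 in T98 with control siRNA. It had 5029 and 3939 in U87 with LKB1 siRNA, against 7966 and 5131 in U87 with control siRNA. The groups of AKR1C1 did not overlap in either line, and in U87 the highest LKB1 siRNA library lay just under the lowest control library.

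AKR1C2 (hg19 chr10:5029968-5060225, minus strand) inactivates dihydrotestosterone. Its values were 59440 and 74796 in T98 with LKB1 siRNA, against 88158 and 119991 in T98 with control siRNA. In U87 they were 3677 and 2799 with LKB1 siRNA, against 5808 and 3670 with control siRNA. The AKR1C2 groups were apart in T98 and overlapped slightly in U87, where the lane 2 library with LKB1 siRNA was level with the lane 5 control.

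AKR1C3 (hg19 chr10:5090958-5149878, plus strand) makes testosterone from androstenedione and also makes prostaglandin F. It had 27131 and 37187 in T98 with LKB1 siRNA, against 41035 and 61842 in T98 with control siRNA. It had 2353 and 2274 in U87 with LKB1 siRNA, against 3796 and 2648 in U87 with control siRNA. The AKR1C3 groups did not overlap in either line, and the smallest within-lane difference of the 3 genes, −0.22 on the log2 scale, was that of AKR1C3 on lane 5 of U87.

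Within lanes, the log2 differences of the 3 AKR1C genes ran from −0.53 to −0.73 in T98. In U87 they ran from −0.66 to −0.69 on lane 2 and from −0.22 to −0.39 on lane 5. In T98 the fitted log2 fold changes were −0.63 for AKR1C1 and for AKR1C2 (SE 0.30 each) and −0.67 for AKR1C3 (SE 0.28). In U87 they were −0.52 for AKR1C1 and for AKR1C2 (SE 0.30 each) and −0.45 for AKR1C3 (SE 0.28). In bulk RNA, fewer cells that express a gene and less RNA per cell cannot be told apart.

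The other 3 members had no such pattern. AKR1B1 (hg19 chr7:134127107-134143888, minus strand), aldose reductase, makes sorbitol from glucose in the first step of the polyol pathway. Its values were 21286 and 18537 in T98 with LKB1 siRNA, against 21139 and 26839 in T98 with control siRNA. In U87 they were 96183 and 54310 with LKB1 siRNA, against 134462 and 61892 with control siRNA. AKR1B1 was level on lane 2 of T98 (log2 difference 0.01) and lower with LKB1 siRNA in the other 3 pairs (log2 differences −0.53, −0.48 and −0.19), and its groups overlapped in both lines.

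AKR1A1 (hg19 chr1:46016455-46035723, plus strand), the general aldehyde reductase, had 2344 and 1939 in T98 with LKB1 siRNA, against 1647 and 2513 in T98 with control siRNA. It had 2460 and 1410 in U87 with LKB1 siRNA, against 2510 and 1545 in U87 with control siRNA. The T98 pairs of AKR1A1 went opposite ways, with log2 differences of 0.51 on lane 2 and −0.37 on lane 4. AKR7A2 (hg19 chr1:19629202-19638640, minus strand) reduces succinic semialdehyde, a breakdown product of the transmitter GABA. It had 1678 and 1179 in T98 with LKB1 siRNA, against 1765 and 1556 in T98 with control siRNA. It had 2332 and 2142 in U87 with LKB1 siRNA, against 2550 and 1802 in U87 with control siRNA. Its groups overlapped in both lines, and its U87 pairs had opposite signs.

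**Figure D2:**
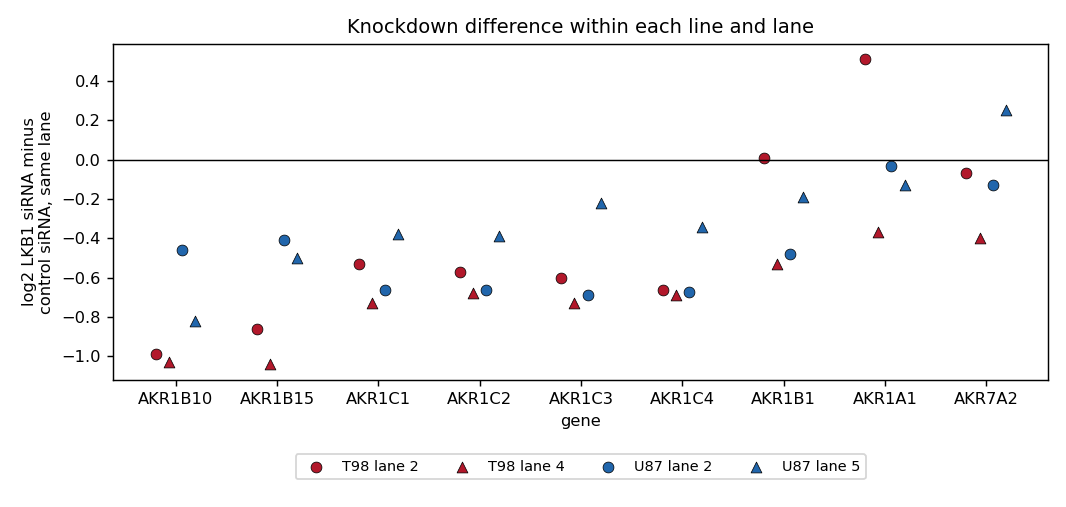
Log2 difference between the LKB1 siRNA and the control siRNA library of the same line and lane, 1 point per pair, for the 7 members and for AKR1B15 and AKR1C4. AKR1B10, AKR1B15 and the AKR1C genes lie below 0 in each of the 4 pairs, with AKR1B10 (−0.99 and −1.03) and AKR1B15 (−0.86 and −1.04) lowest in T98, while AKR1A1 and AKR7A2 have points on both sides of 0.

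As counts, 4 of the 7 members were lower with LKB1 siRNA in all 4 pairs, as were 21.3% of the 14282 genes tested. The 4 were AKR1B10, AKR1C1, AKR1C2 and AKR1C3. In T98, 4 members had LKB1 siRNA libraries wholly below the control libraries, as did 20.5% of genes. In U87, 3 members did (AKR1B10, AKR1C1 and AKR1C3), as did 20.2% of genes. The median log2 fold change of the 7 members was −0.63 in T98 and −0.45 in U87, beside 0.02 and −0.00 over all genes tested. These contrasts were known when the genes were chosen, so the counts and medians describe the members and test nothing.

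No member passed an adjusted p of 0.05 in limma-trend, in which 0.028% of genes passed in T98, 0.056% in U87 and 1.86% for the mean of both lines. At an unadjusted p under 0.05, 2 members passed in T98, 0 in U87 and 4 for the mean, as did 10.5%, 8.88% and 15.8% of all genes tested. When each line was given a lane term, AKR1B10, AKR1C1, AKR1C2 and AKR1C3 passed as lower in T98, where 7.33% of genes did and 15.8% passed in either direction. AKR1B10, AKR1C1 and AKR1C2 passed as lower in U87, where 5.91% of genes did and 11.2% passed in either direction. For the mean of both lines the same 4 genes as in T98 passed as lower, where 13.2% of genes did and 26.4% passed in either direction. Without any 1 of the 4 U87 libraries, the lane-term fit called 0 members in either line. Without T98 control replicate 1 it called 0 in T98, and without T98 LKB1 siRNA replicate 1 it called 1, AKR1B10.

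Whether the lines differed in their response was asked by the difference of their log2 fold changes, T98 minus U87. For AKR1B10 this difference was −0.37 (SE 0.47, or 0.18 with a lane term). For AKR1C1, AKR1C2 and AKR1C3 it was −0.11, −0.10 and −0.21, with SEs of 0.43, 0.42 and 0.40. Each of these 4 differences was smaller than its SE in the fit without a lane term. No member passed in either fit, at an adjusted or an unadjusted p of 0.05. Across all genes 0% passed without the lane term and 0.476% with it.

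The second comparison set T98 against U87, both with control siRNA. AKR1B10 averaged 60316 ± 21033 in T98 and 1824 ± 126 in U87 (SD, n = 2 each), a ratio of 33.1. AKR1C1 averaged 89545 ± 23394 in T98 and 6548 ± 2004 in U87, a ratio of 13.7. The ratio was 22 for AKR1C2 and 16 for AKR1C3. Within lane 2 alone these 4 genes were 23.8, 9.16, 15.2 and 10.8 times higher in T98. The direction was that of the means, and lane and duplicate cannot be told apart.

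AKR1B1 went the other way, with 23989 ± 4030 in T98 and 98177 ± 51315 in U87 (SD, n = 2 each), which was 4.09 times higher in U87. On lane 2, AKR1B1 was 6.36 times higher in U87 than in T98. In U87, lane 2 held the higher AKR1B1 library with either siRNA. AKR1A1 overlapped between the lines, with 2080 ± 612 in T98 and 2028 ± 682 in U87. AKR7A2 averaged 1661 ± 148 in T98 and 2176 ± 528 in U87, and its control libraries did not overlap.

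With LKB1 siRNA the lines differed in the same directions. AKR1B10 averaged 29815 ± 9913 in T98 and 1187 ± 293 in U87 (SD, n = 2 each), a ratio of 25.1. The ratio was 12.7 for AKR1C1, 20.7 for AKR1C2 and 13.9 for AKR1C3. AKR1B1 was 3.78 times higher in U87 than in T98. All 4 T98 libraries lay above all 4 U87 libraries for AKR1B10, AKR1C1, AKR1C2 and AKR1C3, as for 25.7% of genes. They lay below for AKR1B1 and AKR7A2, as for 25.8% of genes. Between the control siRNA libraries, 5 members passed in limma-trend, where 37.7% of genes passed. The 5 were AKR1B10, AKR1C1, AKR1C2 and AKR1C3, higher in T98 as were 18.3% of genes, and AKR1B1, higher in U87 as were 19.5%. With a lane term the same 5 passed, where 63.3% of genes passed.

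Levels can be compared between genes only roughly, once divided by the length of the transcript in the table. AKR1C1 was divided by 1388 bases and AKR1C2 by 4167. The transcript lengths used in these cells were not tested, and the split of reads between these 2 genes is uncertain. Their ranks and shares rest on both. Per kilobase, AKR1C1 ranked 7th and 4th of the 18787 genes in T98 with control siRNA, and 38th and 11th in T98 with LKB1 siRNA. AKR1B1 ranked 7th and 23rd in U87 with LKB1 siRNA, and 4th and 19th in U87 with control siRNA. Per kilobase, AKR1C1 to AKR1C3 together made up 67.1% and 68.6% of the summed level of the 7 members in T98 with LKB1 siRNA, and 67.7% and 66.7% in T98 with control siRNA. In U87 the same 3 genes made up 7.36% and 10.2% with LKB1 siRNA, and 8.35% and 11.2% with control siRNA. AKR1B1 made up the bulk in U87, at 88.4% and 84.7% with LKB1 siRNA and 88.2% and 83.6% with control siRNA.

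In T98, AKR1B10 made up 14.8% and 19% of the members' summed level per kilobase with LKB1 siRNA, and 20.3% and 22.9% with control siRNA. AKR1B1 took 15.8% and 10.9% of that level in T98 with LKB1 siRNA, and 10.8% and 9.33% in T98 with control siRNA. The share of AKR1B10 was smaller with LKB1 siRNA than with control siRNA on both lanes of T98, and that of AKR1B1 larger. A share can grow without more RNA: AKR1B1 in T98 stood at 1.01 and 0.691 times the control within lanes. In U87 the AKR1B10 share was 1.12% and 1.34% with LKB1 siRNA, and 1.1% and 2.05% with control siRNA. Without division by length, the 7 genes together held 0.559% and 0.759% of all normalised counts in T98 with LKB1 siRNA, and 0.829% and 1.28% in T98 with control siRNA.

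**Figure D3:**
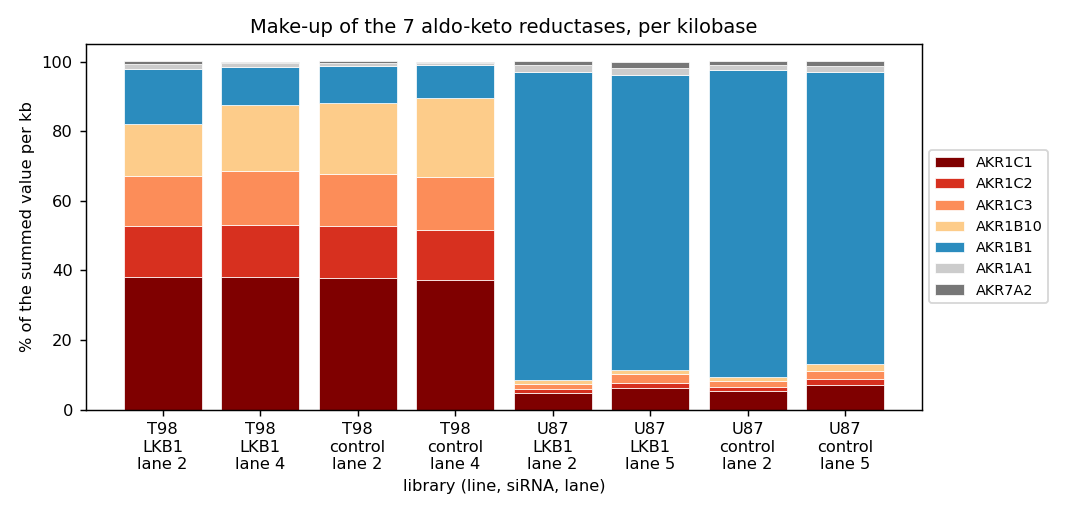
Share of each of the 7 aldo-keto reductases in their summed level per kilobase of transcript, in percent, 1 stacked bar per library. The shares rest on the transcript lengths in the table and on how shared reads were split. AKR1C1, AKR1C2 and AKR1C3 make up 66.7% to 68.6% in the T98 libraries, and AKR1B1 makes up 83.6% to 88.4% in the U87 libraries.

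Ratios between neighbouring genes were compared within each library. AKR1C2 over AKR1C1 was 1.18 and 1.17 in T98 with LKB1 siRNA, and 1.21 and 1.13 in T98 with control siRNA. In U87 it was 0.731 and 0.711 with LKB1 siRNA, and 0.729 and 0.715 with control siRNA. The ratio of this pair thus separated the lines and overlapped between the siRNAs, with the limit that their shared stretches make the split uncertain. AKR1C3 over AKR1C1 lay between 0.538 and 0.583 in T98 and between 0.468 and 0.577 in U87. AKR1B10 over AKR1B1 was 1.07 and 1.99 in T98 with LKB1 siRNA, and 2.15 and 2.8 in T98 with control siRNA. It was 0.0145 and 0.018 in U87 with LKB1 siRNA, and 0.0142 and 0.028 in U87 with control siRNA.

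**Figure D4:**
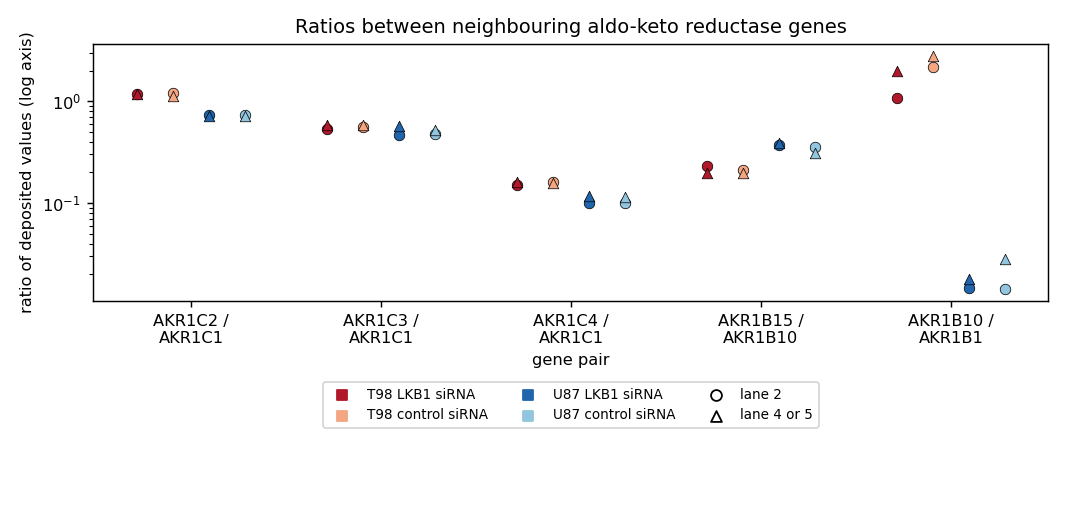
Ratio of the normalised values of neighbouring aldo-keto reductase genes (log axis) in each library; circles mark lane 2 and triangles lane 4 (T98) or lane 5 (U87). AKR1C2 over AKR1C1 lies at 1.13 to 1.21 in T98 and at 0.711 to 0.731 in U87, and AKR1B10 over AKR1B1 is over 1 in T98 and under 0.03 in U87.

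Among 9 further genes of the superfamily, 7 were in the table and 6 were tested. AKR1C4, the AKR1C enzyme of the liver, had 7499 and 10312 in T98 with LKB1 siRNA, against 11812 and 16626 in T98 with control siRNA. It had 507.6 and 462.5 in U87 with LKB1 siRNA, against 807.6 and 586.1 in U87 with control siRNA. AKR1C4 stood at 0.149 to 0.162 times AKR1C1 in the T98 libraries and at 0.101 to 0.117 times AKR1C1 in the U87 libraries. It shared 12.1% of its 50-base stretches with other AKR1C genes, and the liver markers named above were under 10. Whether the AKR1C4 value holds reads from AKR1C1 to AKR1C3 was not tested.

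AKR1B15, whose product acts on steroids and retinal, had 5222 and 7253 in T98 with LKB1 siRNA, against 9500 and 14899 in T98 with control siRNA. It had 515.3 and 381.9 in U87 with LKB1 siRNA, against 685.1 and 540.3 in U87 with control siRNA. In T98 it was 0.197 to 0.229 times AKR1B10, and in U87 it was 0.311 to 0.39 times. The part that reads shared with AKR1B10 have in these values was not tested. With a lane term, AKR1B15 fell in T98 (log2 fold change −0.95, SE 0.12, limma-trend, adjusted p = 0.00655), as did AKR1C4 (−0.67, SE 0.13, adjusted p = 0.0178). In U87, AKR1C4 fell (−0.50, adjusted p = 0.0468), while AKR1B15 had −0.45 and an adjusted p of 0.0529. Without the lane term, limma-trend called 0 of the 6 genes in either line. At an unadjusted p under 0.05 it had 2 of them lower in T98 and 0 in U87, where 10.5% and 8.88% of all genes passed in either direction.

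AKR7A3, the neighbour of AKR7A2 that detoxifies aflatoxin aldehydes, lay between 86.53 and 136.7 in T98 and between 147.9 and 199.5 in U87. AKR1D1, the steroid reductase of bile acid synthesis, did not exceed 12.07 in any library and was not tested. The potassium channel beta subunits KCNAB1, KCNAB2 and KCNAB3 share the reductase fold. KCNAB1 was lower with LKB1 siRNA in all 4 pairs (log2 differences of −0.28 to −0.85), and KCNAB2 higher (0.14 to 0.41). Neither passed in either fit. Between the lines, KCNAB1 was lower in T98 (log2 difference −1.92, SE 0.44, limma-trend, adjusted p = 0.0119), a call lost without T98 control replicate 1 or either U87 control library. AKR1C4 and AKR1B15 were higher in T98, by 4.35 (SE 0.26, adjusted p = 6.55e-05) and 4.29 (SE 0.30, adjusted p = 9.2e-05).

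Other genes of the same pathways were taken from 4 lists, written with earlier results of these data known. Every lane-term call of a knockdown effect given for them, as for AKR1B15 and AKR1C4, was lost without either lane 2 library of U87, since the fit then called 0 genes in T98, in U87, in their mean and in their difference. Among the NRF2 axis and its targets outside the family, 32 of 34 genes were tested. With control siRNA, 21 of the 32 were higher in T98 and 2 lower in limma-trend, beside the shares of all genes given above. The list's median log2 difference was 1.90, beside −0.01 over all genes. NFE2L2, which encodes NRF2, was higher in T98 by 2.21 (SE 0.19, limma-trend, adjusted p = 0.000204). Its values were 19044 and 22921 in T98 and 4462 and 4585 in U87. For KEAP1 the difference was 0.29 (SE 0.20, adjusted p = 0.284).

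Detoxifying enzymes were among the 21 genes higher in T98. The detoxifying hydrolase EPHX1 had 20800 and 29433 in T98 with control siRNA, against 1330 and 1371 in U87 with control siRNA, a log2 difference of 4.19 (SE 0.21, limma-trend, adjusted p = 4.03e-05). The quinone reductase NQO1 was higher in T98 by 2.78 (SE 0.34, adjusted p = 0.000896), and GCLC, which begins glutathione synthesis, by 2.97 (SE 0.33, adjusted p = 0.000569). The fatty acid hydroxylase CYP4F11 was higher by 7.61 (SE 0.43, adjusted p = 5.02e-05). The 2 genes lower in T98 were the carbonyl reductase CBR1 and the nuclear receptor NR0B1. NR0B1 had 2.103 and 0 in T98, against 652.4 and 476.3 in U87.

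**Figure D5:**
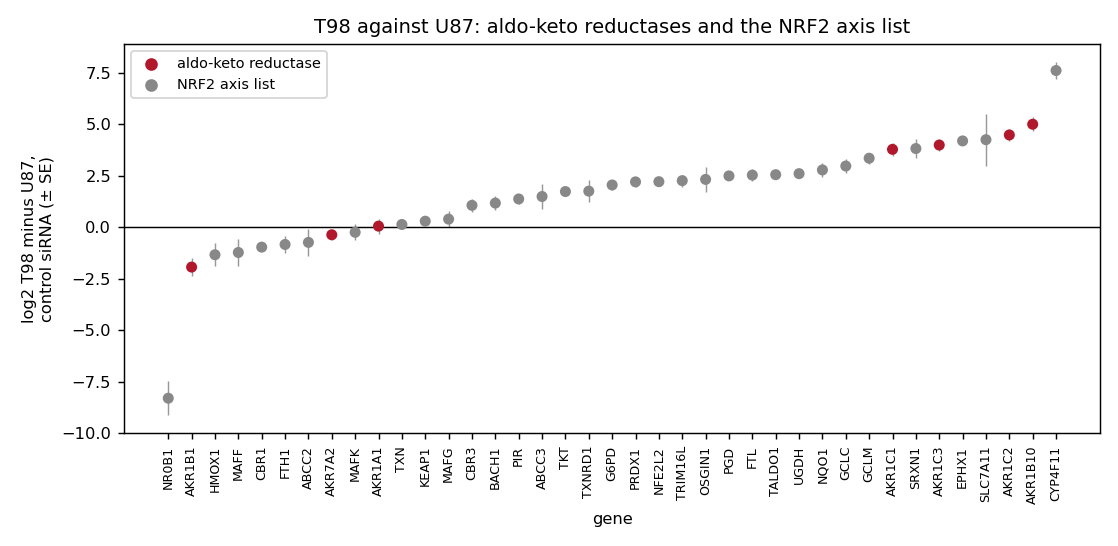
Log2 difference between T98 and U87 with control siRNA (limma-trend without a lane term, bars ± SE, 2 libraries per group) for the 7 aldo-keto reductases (red) and the 32 tested genes of the NRF2 axis list (grey), in rising order. AKR1C1 (3.78), AKR1C3 (3.99) and AKR1C2 (4.48) lie among EPHX1 (4.19) and SRXN1 (3.82), AKR1B10 lies above them, and AKR1B1 lies at −1.94.

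The same list in the knockdown had 0 of 32 genes past the threshold in either line without the lane term, and at an unadjusted p under 0.05 it had 0 higher and 3 lower in T98, and 1 higher and 2 lower in U87, or 3 of 32 in each line. That is near the shares of all genes at this threshold, 10.5% in T98 and 8.88% in U87. With the lane term, 2 genes rose and 5 fell in T98, and 2 rose and 2 fell in U87. In that fit 15.8% of all genes passed in T98 and 11.2% in U87, in either direction. TRIM16L fell in T98 (log2 fold change −1.03, SE 0.13, limma-trend, adjusted p = 0.00681) and in U87 (−0.77, adjusted p = 0.012). SRXN1, which repairs oxidised peroxiredoxins, fell in T98 (−1.03, adjusted p = 0.0111), as did BACH1, a repressor of NRF2 targets (−1.22, adjusted p = 0.0126). HMOX1, heme oxygenase, rose in T98 (0.84, adjusted p = 0.0346) and in U87 (1.46, adjusted p = 0.00564).

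NQO1 fell in U87 with the lane term, with 6187 and 9897 in LKB1 siRNA libraries against 12639 and 17071 in control libraries (log2 fold change −0.91, SE 0.13, limma-trend, adjusted p = 0.00668). In T98 it had 87847 and 119664 with LKB1 siRNA, against 81391 and 125828 with control siRNA. The difference between the lines for NQO1 was 0.93 (SE 0.19, adjusted p = 0.0878), which did not pass. NFE2L2 had log2 fold changes of −0.16 in T98 and −0.32 in U87 and passed in neither fit. The list's median was −0.21 in T98 and −0.10 in U87, beside 0.02 and −0.00 over all genes.

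Of 23 tested genes of carbonyl reduction and of the polyol and glucuronate pathways, 0 passed in either line without a lane term, and at an unadjusted p under 0.05 there were 2 higher in T98 and 2 higher in U87, beside 10.5% and 8.88% of all genes in either direction. With the lane term, 3 rose and 2 fell in T98, and 1 rose and 1 fell in U87, beside 15.8% and 11.2% of all genes. The prostaglandin reductase PTGR1 fell in T98 (log2 fold change −0.53, SE 0.11, limma-trend, adjusted p = 0.0239) and in U87 (−0.69, adjusted p = 0.0107). GLO1, which detoxifies methylglyoxal, rose in T98 (0.94, adjusted p = 0.00595). UGP2, which makes UDP-glucose, rose in the mean of both lines without a lane term (0.63, SE 0.12, adjusted p = 0.0473), a call lost when any 1 of the 8 libraries was left out. Between the lines, PTGR1 was higher in T98 by 1.85 (SE 0.33, limma-trend without a lane term, adjusted p = 0.0045). UGDH, which makes UDP-glucuronate, was higher by 2.60 (SE 0.21, adjusted p = 0.000158).

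In the prostaglandin list, 19 of 23 genes were tested and 0 passed in either line without a lane term, with 1 higher in T98 and 1 higher in U87 at an unadjusted p under 0.05, beside 10.5% and 8.88% of all genes in either direction. With the lane term, 3 rose and 2 fell in T98, and 1 rose and 1 fell in U87, beside 15.8% and 11.2% of all genes. PTGES, prostaglandin E synthase, had 66.6 and 282.4 in T98 with LKB1 siRNA, against 20.46 and 88.48 in T98 with control siRNA (log2 fold change 1.66, SE 0.14, limma-trend with a lane term, adjusted p = 0.00215). Its effect was larger in T98 than in U87 by 1.44 (SE 0.19, adjusted p = 0.0439). With control siRNA, PTGES was lower in T98 than in U87 (log2 difference −7.54, SE 0.81, adjusted p = 0.000478). This and the line differences of PTGS2 and HPGD are from limma-trend without a lane term. PTGS2, cyclooxygenase, was lower in T98 than in U87 (log2 difference −3.98, SE 1.00, adjusted p = 0.0177), a call lost without T98 control replicate 1 or U87 control replicate 2. HPGD, which inactivates prostaglandins, was higher in T98 by 5.52 (SE 1.05, adjusted p = 0.0059). Its values with control siRNA were 208.1 and 675.2 in T98, against 5.32 and 9.575 in U87. Both U87 values were under 10, so the size of that difference is uncertain. PTGR1, which fell in each line with the lane term, counts in the prostaglandin list and in the list before it. The 4 lists share some genes, DHRS3 and UGDH among them, so their counts are not separate.

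Of 25 tested genes in the list of steroid and retinoid enzymes, 0 passed in either line without a lane term, with 0 in T98 and 1 higher in U87 at an unadjusted p under 0.05, beside 10.5% and 8.88% of all genes in either direction. With the lane term, 3 rose and 1 fell in T98, and 2 rose and 0 fell in U87, beside 15.8% and 11.2% of all genes. HSD17B2, which inactivates testosterone and estradiol, had 666.3 and 270.7 in T98 with LKB1 siRNA, against 208.9 and 149 in T98 with control siRNA (log2 fold change 1.26, SE 0.34, limma-trend with a lane term, adjusted p = 0.0449). HSD17B2 was also 1 of the 2 genes that rose in U87 with the lane term. It was at most 6.836 in U87, so that call rests on values under 10. RDH10, which makes retinal, fell in T98 (−0.65, SE 0.14, adjusted p = 0.0238). RDH10 was also higher in T98 than in U87 with control siRNA, by 3.44 (SE 0.32, limma-trend without a lane term, adjusted p = 0.000267). SRD5A1, a steroid reductase that makes dihydrotestosterone, passed in neither knockdown comparison nor between the lines.

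The genes whose log2 values followed each member most closely were found by Pearson's r over the 8 libraries, as a description that rests largely on the difference between the lines. For AKR1B10 they were CDSN (r = 0.996), HIBADH (0.996) and PRDX1 (0.995). For AKR1C1 they were PRDX1, SUCLA2 and HIBADH (0.997 each). For AKR1C2 they were ADRB1, SUCLA2 and PRDX1, and for AKR1C3 ADRB1, PRODH2 and HIBADH, at 0.997 to 0.998. DHRS7 was closest to AKR1B1 (0.997), ASPSCR1 to AKR7A2 (0.976) and RHBDD2 to AKR1A1 (0.932). PRDX1, a peroxiredoxin, averaged 88766 in T98 and 19148 in U87 with control siRNA. With control siRNA, ADRB1 averaged 279.6 in T98 and PRODH2 30.58, and each averaged only 0.5233 in U87. CDSN averaged 32.79 in T98 and 7.031 in U87.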

How the data were processed

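The submitters' processing notes name TopHat2 2.0.8b as aligner, edgeR, and the build hg19/GRCh37; libraries were made with an unstranded kit, per the labels' protocols. The deposited signal is 1 normalised value per transcript and library, made by the authors, for 18815 transcripts, and its values equal edgeR pseudo-counts at a common dispersion of 0.06803. Inverting that function gave whole reads within 0.05 read for 100% of values, and these served for depth only. A symbol kept its highest transcript. The 14282 genes with a value of at least 10 in at least 2 libraries were tested with limma-trend (R 4.3.3, limma 3.58.1) after adding 1 and taking log2, with 4 group means and 4 residual degrees of freedom. Fold changes are on this scale. Tests were two-sided, and Benjamini-Hochberg adjusted p-values over these genes were called under 0.05.

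The lane-term fit adds a lane effect within each line, leaving 2 residual degrees of freedom, and compares the lines on lane 2. Lanes come from the column names per the file headers. Replicate numbers are only names, given in sample order. The lane-difference correlation between groups of different lines was 0.12 to 0.18. Of the genes tested, 56 had values identical to another gene's. Without strand, reads of overlapping antisense genes cannot be told apart. Both fits were tested on simulated data.

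Members, lists and rules were chosen with earlier results of these data known. All members and further family genes were named, with STK11 and, from each other list, the genes with the smallest lane-term p and a few defining genes. Sequences are from RefSeq (GRCh38.p14) and GENCODE 29 (GRCh38). No coordinates were converted.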

Additional observations from a re-analysis of the deposited data

How the results depend on the processing

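Without a lane term, 0 members passed in T98, U87, their mean and their difference, and 5 between the lines. Rescaling by TMM factors, pseudocounts of 0.5 and 5, no filter, a minimum of 50 and every transcript row as its own feature gave the same counts. With the lane term for each line, which pairs libraries by lane, 4 members passed in T98, 3 in U87, 4 for the mean, 0 for the difference and 5 between the lines. No paired analysis by replicate number was possible because the labels give none. When 1 library was left out, with or without the lane term, 0 to 5 members passed in T98, 0 to 4 in U87, 0 to 5 for the mean, 0 for the difference and 4 to 7 between the lines. AKR1B1 lost its call between the lines without T98 control replicate 1, in the fit without a lane term. With the lane term, no gene at all was called in T98, U87 or their mean without either U87 lane 2 library. The leave-one-out fits with the lane term were chosen after the data were examined, and 1 sample then carries a group. Of 525 log2 fold changes of members under the alternatives, 493 stayed within 1 SE, 32 moved by more and 0 called values reversed. Those that moved did so with the lane term or a library left out. Tests of counts with edgeR and DESeq2 were not run. With 2 libraries per group, the spread between the 2 libraries of a group limits precision more than depth.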
